A study of Mus musculus with 12 samples.

Results

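Transcripts that mark the endothelium of the liver sinusoids were followed in total RNA from mouse liver, as 7 genes that are typical of sinusoidal endothelial cells (Stab1, Stab2, Lyve1, Clec4g, Fcgr2b, Oit3 and Ehd3) beside 3 that endothelial cells of most vessels transcribe (Kdr, Pecam1 and Egfl7). The genes were taken by symbol, and all 10 were found among the 55536 genes of both deposited tables and tested in every comparison. The 12 samples form 3 groups of 4, named for the short hairpin RNA (shRNA) in an adenovirus: shG0s2 against G0s2, shRgs16 against Rgs16, and the control shLacZ against the bacterial gene lacZ. All groups were wild-type C57BL/6J mice aged 8 weeks, and every animal, controls included, received adenovirus at 0.1 OD through a tail vein. Livers were collected 12 days after injection at zeitgeber time 12, following 6 h without food in the light phase. The sex of the animals is not in the labels, and nothing there says that replicates were separate animals, so each p-value reflects the variation among these samples, which may be technical. Each hairpin was delivered to the whole animal and each value comes from whole liver, so no reading belongs to endothelial cells alone.

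Sinusoidal endothelial cells line the exchange vessels of the liver. They are perforated by open pores, lie on little basement membrane and clear waste macromolecules from blood through scavenger receptors. The stabilins Stab1 and Stab2 take up hyaluronan and modified proteins, Lyve1 is a hyaluronan receptor, Clec4g is a C-type lectin and Fcgr2b is an inhibitory Fc receptor that removes small immune complexes. Ehd3 belongs to the EHD ATPases of endosomal recycling, and Oit3 encodes a secreted protein with a zona pellucida domain. On the shared side, Kdr is the main receptor for vascular endothelial growth factor A, Pecam1 is a junctional adhesion protein and Egfl7 is a secreted endothelial factor. When liver vessels take on features of ordinary capillaries, genes such as Cd34 and Plvap are used as markers of that change.

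Before the markers are described, the hairpin targets check the labels. G0s2 ranged from 24.6 to 49.3 CPM (counts relative to library size, scaled by TMM over the 12 samples) in shG0s2 samples, against 66.6 to 87.4 CPM in shLacZ samples. Without TMM scaling the G0s2 ranges overlapped, at 27.8 to 56.6 CPM in shG0s2 samples and 53.5 to 71.9 CPM in shLacZ samples. In TPM (defined below) G0s2 stood at 124.88, 103.18, 60.36 and 95.01 in shG0s2 samples, against 134.75, 114.02, 110.88 and 100.99 in shLacZ samples, so that shG0s2 replicate 1 exceeded 3 of the 4 controls and replicate 2 exceeded 1. Rgs16 ranged from 14.4 to 37.4 CPM in shRgs16 samples, against 105.2 to 212.0 CPM in shLacZ samples, and it was also low in shG0s2 samples, at 43.9 to 71.3 CPM. Each library held 18458266 to 27170443 counts, and the 10 genes together took 0.0400% to 0.0657% of them, with at least 421 counts per gene and sample. The major urinary protein genes took 0.822% to 1.57% of counts in shG0s2, 1.16% to 3.31% in shRgs16 and 9.56% to 11.03% in shLacZ. Shares of a library are relative to one another, and scaling to library size alone put the median log2 fold change of all genes at 0.50 in shG0s2 against shLacZ, 0.31 in shRgs16 against shLacZ and 0.21 in shG0s2 against shRgs16. TMM scaling put these medians near 0, and a statement below that depends on this choice says so.

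The genes all sit in the mouse genome build GRCm38 on different chromosomes, except Stab2 and Oit3, which share chromosome 10. Stab1 (ENSMUSG00000042286) lies at chr14:31139013-31168641 and Egfl7 (ENSMUSG00000026921) at chr2:26580014-26593120. A coding gene on the opposite strand overlaps each of these, Nt5dc2 over 112 exonic bases of Stab1 and Agpat2 over 64 exonic bases of Egfl7, and the strand setting of the authors' counting is not given in the sources used here. Nt5dc2 averaged 15.5 ± 0.541 CPM in shG0s2, 10.4 ± 1.97 CPM in shRgs16 and 5.68 ± 1.29 CPM in shLacZ, and Agpat2 averaged 85.5 ± 4.59 CPM in shG0s2, 76.2 ± 5.86 CPM in shRgs16 and 140.6 ± 10.3 CPM in shLacZ (SD, n = 4 each). Egfl7 also hosts the microRNA gene Mir126a. The predicted gene model Gm20532 overlaps Egfl7 on the same strand, and the microRNA gene Mir126b does so on the opposite strand. Ehd3 (ENSMUSG00000024065) at chr17:73804134-73832094 and Kdr (ENSMUSG00000062960) at chr5:75932827-75978458 overlap no annotated gene, nor do Oit3 (ENSMUSG00000009654) at chr10:59422958-59441778, Pecam1 (ENSMUSG00000020717) at chr11:106654217-106750628 and Lyve1. Only predicted gene models overlap Stab2, Clec4g and Fcgr2b on the opposite strand. Promoter entries were found for 7 of the 10 genes in RefSeq (GRCm38.p6), each covering the 250 bases before an annotated start. Those of Ehd3 and Kdr are printed because these genes fell in shG0s2 livers on the TMM scale, and those of Stab1 and Egfl7 because these rose in shRgs16 livers. Capitals mark matches, on either strand, to GATAA (the letters bound by GATA factors; TTATC on the other strand) or to CAGGAAG (an ETS-type motif; CTTCCTG on the other strand), the 2 motifs searched, which do not overlap one another here.
Ehd3, chr17:73804591-73804840, plus strand: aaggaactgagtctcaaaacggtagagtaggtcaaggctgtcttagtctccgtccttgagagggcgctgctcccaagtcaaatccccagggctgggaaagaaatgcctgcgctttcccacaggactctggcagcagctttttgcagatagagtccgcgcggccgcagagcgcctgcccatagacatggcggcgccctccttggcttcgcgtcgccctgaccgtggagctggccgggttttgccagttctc
Kdr, chr5:75978456-75978705, minus strand: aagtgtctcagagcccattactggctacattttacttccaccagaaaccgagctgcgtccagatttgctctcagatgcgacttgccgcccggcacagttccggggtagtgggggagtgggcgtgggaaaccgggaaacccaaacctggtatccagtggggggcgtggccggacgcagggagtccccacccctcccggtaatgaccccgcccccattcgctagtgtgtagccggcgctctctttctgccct
Stab1, chr14:31168642-31168891, minus strand: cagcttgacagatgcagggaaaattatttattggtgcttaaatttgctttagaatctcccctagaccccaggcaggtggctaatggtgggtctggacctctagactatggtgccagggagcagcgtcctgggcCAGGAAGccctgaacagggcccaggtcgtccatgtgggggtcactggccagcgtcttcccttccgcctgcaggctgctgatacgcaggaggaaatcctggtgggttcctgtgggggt
Egfl7, chr2:26583615-26583864, plus strand, the start with a match to both motifs among 3 annotated starts: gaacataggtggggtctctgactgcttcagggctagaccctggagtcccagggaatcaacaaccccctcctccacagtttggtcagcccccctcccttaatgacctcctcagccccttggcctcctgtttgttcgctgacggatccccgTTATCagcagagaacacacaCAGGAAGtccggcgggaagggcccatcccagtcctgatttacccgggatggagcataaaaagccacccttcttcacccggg
The 7 genes have 9 windows, of which 3 belong to Egfl7. GATAA or its complement was present in 1 of the 9 windows (of Egfl7), against 22.59% of 32817 promoter windows of the same length. CAGGAAG or its complement was present in 3 of the 9 (1 of Stab1 and 2 of Egfl7), against 10.82% of those windows. The windows printed for Ehd3 and Kdr held neither.

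Compared per transcript length, as TPM (each transcript's share after correction for length), Clec4g had the highest mean of the 10 in every group, but it overlapped Fcgr2b in both knockdown groups. Clec4g averaged 64.4 ± 13.1 TPM in shG0s2, 65.1 ± 5.86 TPM in shRgs16 and 47.9 ± 1.42 TPM in shLacZ (SD, n = 4 each). Fcgr2b averaged 62.6 ± 1.87 TPM in shG0s2 and exceeded Clec4g in 3 of those 4 samples, all but replicate 1, where Clec4g was at 83.4 TPM. In shLacZ Clec4g was followed by Fcgr2b at 36.4 ± 2.52 TPM and Egfl7 at 25.3 ± 1.46 TPM, and neighbours in this upper part of the order did not overlap. Ehd3 at 21.0 ± 2.53 TPM and Stab1 at 20.4 ± 1.44 TPM did overlap in shLacZ. Stab2 at 14.4 ± 1.04, Lyve1 at 12.2 ± 1.804, Oit3 at 12.2 ± 0.619, Kdr at 11.6 ± 0.731 and Pecam1 at 10.03 ± 0.819 TPM formed a lower run in which each neighbour overlapped the next. The place of Ehd3 in this order was 7 in shG0s2, 5 in shRgs16 and 4 in shLacZ, at 19.0 ± 0.505 TPM in shG0s2, 24.4 ± 3.83 TPM in shRgs16 and 21.0 ± 2.53 TPM in shLacZ. Pecam1 was last in shLacZ and 8 in both knockdown groups, while Kdr was last in both knockdown groups at 14.4 ± 1.37 TPM in shG0s2 and 16.9 ± 3.89 TPM in shRgs16.

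TPM is a share of all transcripts, so it carries the shift described above. On the TPM scale all 4 shG0s2 samples lay above all 4 shLacZ samples for 9 of the 10 genes, the exception being Ehd3, and 67.5% of all genes did the same; none of the 10 lay wholly below, against 3.67% of all genes. All shRgs16 samples lay above all shLacZ samples in TPM for 7 of the 10, the exceptions being Ehd3, Kdr and Lyve1, and 49.9% of all genes did the same; again none lay wholly below, against 4.11%. Between the knockdowns in TPM, Fcgr2b lay higher in shG0s2 than in shRgs16 without overlap, as did 37.6% of all genes, and Ehd3 lower, as did 6.67%. The sections that follow therefore use TMM-scaled CPM and, within samples, ratios between the genes.

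**Figure D1:**
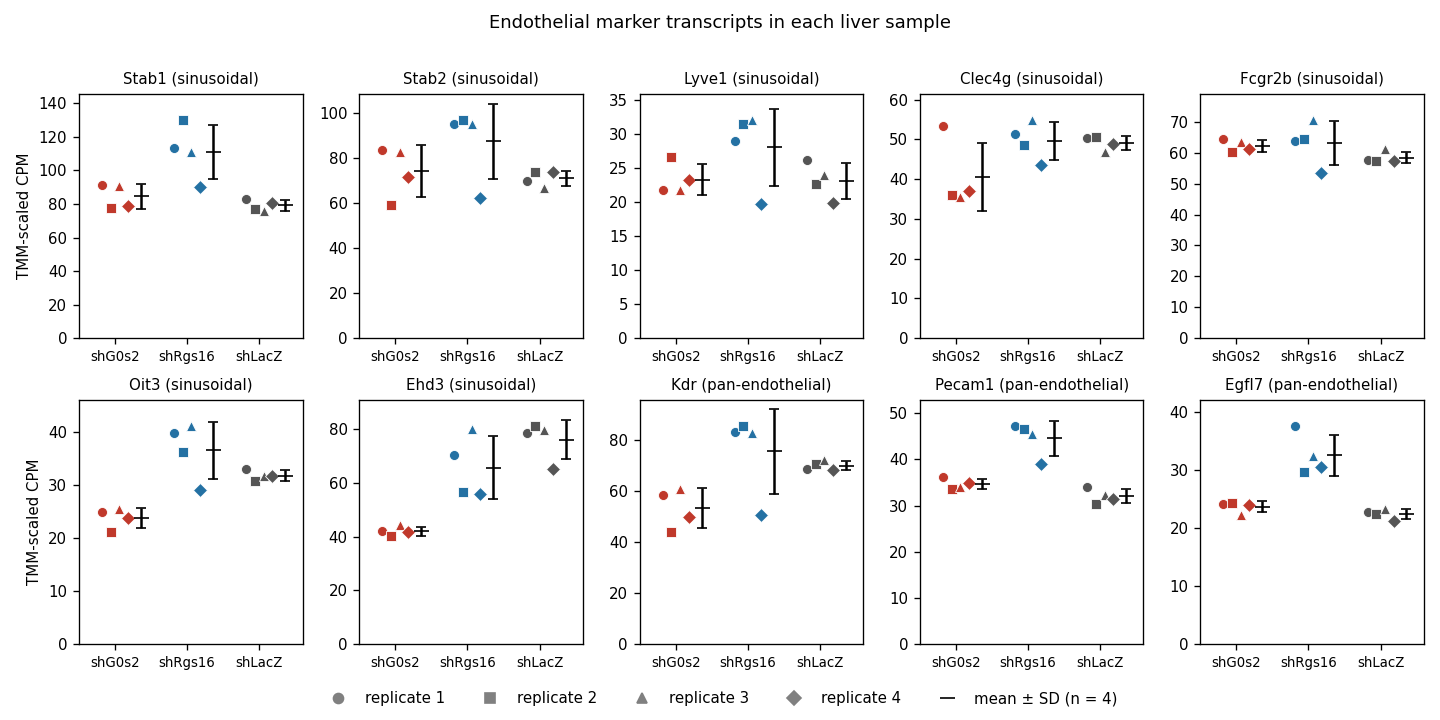
TMM-scaled CPM of each of the 10 endothelial genes (y axis, starting at 0) in every sample of the shG0s2, shRgs16 and shLacZ groups (x axis); symbols are replicates 1 to 4 and the bar is the mean ± SD. Ehd3, Oit3 and Kdr in shG0s2 lie wholly below shLacZ, and Stab1, Pecam1 and Egfl7 in shRgs16 wholly above it, and shRgs16 replicate 4 is the lowest of its group in 9 of the 10 panels.

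Knockdown of G0s2 was compared with shLacZ to ask how the endothelial genes stood in livers given a hairpin against this lipolysis inhibitor. Ehd3 fell to 0.557 of its shLacZ level, and Oit3 and Kdr fell by smaller amounts, while the stabilins, Lyve1, Clec4g, Fcgr2b, Pecam1 and Egfl7 did not pass the threshold in either direction. Thus 3 of the 10 were called lower and 0 higher by edgeR's quasi-likelihood test at a Benjamini-Hochberg adjusted p under 0.05. Across all 15592 genes tested, 29.2% were called lower and 31.3% higher, so the share of these genes called lower was close to that of all genes. The same 3 were the ones whose groups did not overlap on the TMM scale, lower, against 26.9% of all genes, and none was higher without overlap, against 27.8%. In bulk tissue, fewer cells of a type and less RNA per cell cannot be told apart.

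Ehd3 stood at 41.9, 40.3, 44.3 and 41.6 CPM in shG0s2 samples, against 78.5, 81.1, 79.5 and 65.1 CPM in shLacZ samples. The 4 shG0s2 values lay within 4 CPM of one another, and the highest was well under the lowest shLacZ sample, replicate 4. The log2 fold change was -0.85 (SE 0.0728, edgeR adjusted p = 1.31e-06), lower in 4 of 4 samples. The authors' deposited table gave Ehd3 a log2 fold change of -0.86 with an adjusted p of 9.82e-22, without marking it significant, and the genes marked there had absolute log2 fold changes of 1.0004 or more. Ehd3 remained lower with library size alone, at -0.36 (adjusted p = 0.00199), a scaling under which only 7.99% of all genes were called lower.

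Oit3 stood at 24.8, 21.2, 25.4 and 23.9 CPM in shG0s2 samples, against 33.1, 30.7, 31.7 and 31.7 CPM in shLacZ samples. The groups did not overlap, and shG0s2 replicate 2 was the lowest. The log2 fold change was -0.40 (SE 0.0707, edgeR adjusted p = 0.000353). Kdr, counted here on the shared side, stood at 58.5, 44.1, 60.7 and 49.97 CPM in shG0s2 samples, against 68.6, 70.7, 72.0 and 68.4 CPM in shLacZ samples. Its shG0s2 values were spread more widely than its shLacZ values, again without overlap, and the log2 fold change was -0.38 (SE 0.0899, edgeR adjusted p = 0.00299). With library size alone both changed sign and were not called, at 0.08 for Oit3 (adjusted p = 0.347) and 0.10 for Kdr (adjusted p = 0.284), each below the median shift of 0.50 for all genes.

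The remaining genes did not pass the threshold in shG0s2. Stab1 stood at 91.2, 77.8, 90.9 and 78.6 CPM in shG0s2 samples, against 83.0, 77.3, 76.0 and 80.4 CPM in shLacZ samples, and Stab2 ranged from 59.0 to 83.5 CPM in shG0s2, against 66.8 to 73.7 CPM in shLacZ. For both genes the groups overlapped, with log2 fold changes of 0.11 (SE 0.0683, edgeR adjusted p = 0.199) for Stab1 and 0.07 (SE 0.100, adjusted p = 0.545) for Stab2. Lyve1 ranged from 21.7 to 26.6 CPM in shG0s2 and from 19.8 to 26.2 CPM in shLacZ, a log2 fold change of 0.02 (SE 0.0952, edgeR adjusted p = 0.885). Clec4g was at 53.4, 36.1, 35.5 and 37.0 CPM in shG0s2 samples, against 50.4, 50.6, 46.8 and 48.9 CPM in shLacZ samples. A single sample, shG0s2 replicate 1, stood above the controls while the other 3 lay below all of them. The log2 fold change of Clec4g was -0.27 (SE 0.122, edgeR adjusted p = 0.0795) with all samples and -0.43 (adjusted p = 0.000147) without that replicate. Fcgr2b, Pecam1 and Egfl7 had log2 fold changes of 0.10, 0.13 and 0.09, with edgeR adjusted p between 0.0904 and 0.237.

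Library size alone gave another picture of the same counts: 6 of the 10 were then called higher in shG0s2 (Stab1, Stab2, Lyve1, Fcgr2b, Pecam1 and Egfl7, at log2 0.51 to 0.61) and 1 lower (Ehd3), beside 64.6% of all genes called higher. These 6 values lie close to the shift of 0.50 that all genes had under this scaling.

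**Figure D2:**
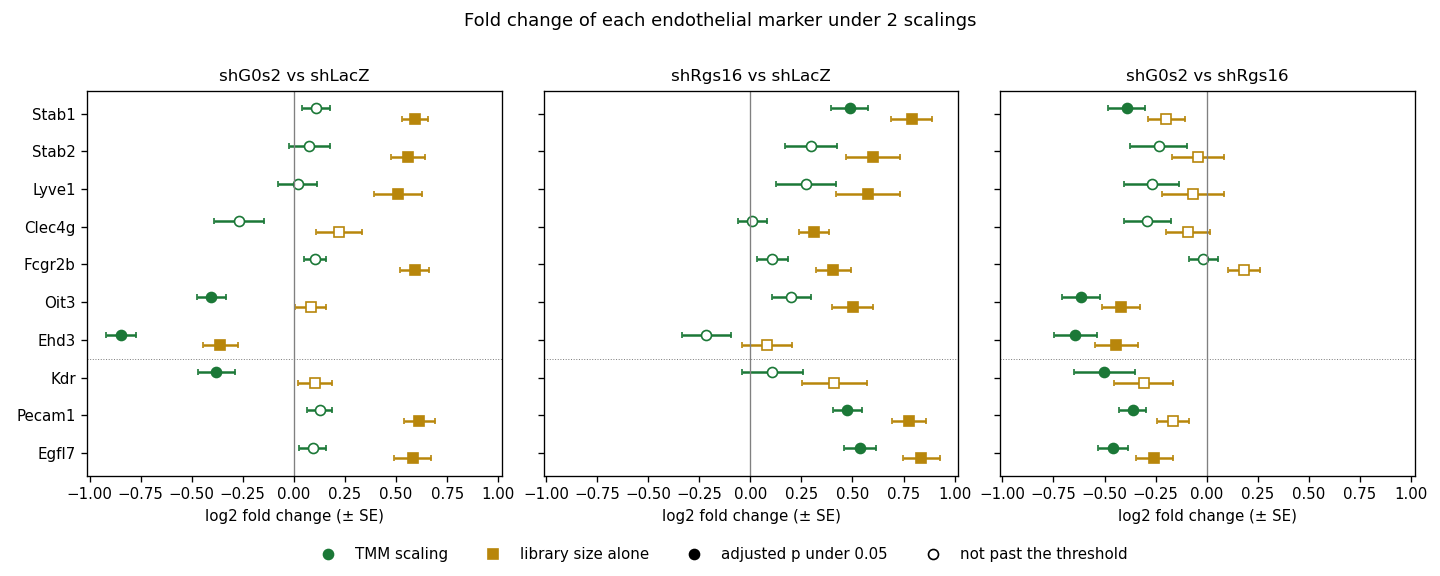
Log2 fold change (x axis, bars ± SE) of each gene (rows, pan-endothelial genes under the dotted line) in the 3 comparisons, from edgeR with TMM scaling (circles) and with library size alone (squares); filled symbols have an adjusted p under 0.05. Ehd3 in shG0s2 against shLacZ is left of 0 under both scalings, at -0.85 and -0.36, whereas Oit3 and Kdr cross 0.

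Knockdown of Rgs16, a regulator that shortens G protein signalling, was compared with the same shLacZ samples. Stab1, Pecam1 and Egfl7 rose by 1.39 to 1.45-fold, and the other 7 genes did not pass the threshold. Thus 3 of the 10 were called higher and 0 lower by edgeR's quasi-likelihood test, against 24.6% and 24.5% of the 15324 genes tested. The same 3 were higher without overlap between groups, against 21.8% of all genes, and none was lower without overlap, against 21.9%.

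Egfl7 stood at 37.6, 29.8, 32.4 and 30.6 CPM in shRgs16 samples, against 22.8, 22.5, 23.3 and 21.2 CPM in shLacZ samples. Every shRgs16 sample exceeded every control, and replicate 1 was the highest. The log2 fold change was 0.54 (SE 0.0800, edgeR adjusted p = 0.000189). Pecam1 stood at 47.2, 46.6, 45.6 and 38.9 CPM in shRgs16 samples, against 33.9, 30.4, 32.3 and 31.4 CPM in shLacZ samples, which is 0.48 on the log2 scale (SE 0.0722, edgeR adjusted p = 0.000215). Stab1 stood at 113.2, 130.0, 110.8 and 90.2 CPM in shRgs16 samples, against 83.0, 77.3, 76.0 and 80.4 CPM in shLacZ samples, a log2 fold change of 0.49 (SE 0.0924, edgeR adjusted p = 0.00118). For both, shRgs16 replicate 4 was the lowest of its group and still above every control. Stab1 is also transcribed by macrophages and Fcgr2b by macrophages and B cells. The summed level of 12 Kupffer cell and macrophage markers was 1516 to 1769 CPM in shG0s2, 1428 to 1622 CPM in shRgs16 and 1019 to 1125 CPM in shLacZ, with none at 0. That of 6 B cell markers was 9.27 to 15.8 CPM in shG0s2, 11.3 to 15.5 CPM in shRgs16 and 5.63 to 9.56 CPM in shLacZ, again with none at 0. Of these, Cd22 averaged 6.42 ± 0.560 CPM in shG0s2, 6.08 ± 0.601 CPM in shRgs16 and 2.69 ± 0.708 CPM in shLacZ. In shG0s2 under TMM, Cd22 was called higher and the other 5 were not called. Clec4f, a lectin of Kupffer cells, averaged 117.8 ± 15.0 CPM in shG0s2, 141.1 ± 31.6 CPM in shRgs16 and 123.8 ± 15.6 CPM in shLacZ. It was not called in either knockdown under TMM, while library size alone called it higher in both (log2 0.43 in shG0s2 and 0.49 in shRgs16). Clec4f was the exception in its list under TMM, where 11 of 12 genes were called higher in shG0s2 and 10 of 11 tested in shRgs16. Of all genes, 31.3% were higher in shG0s2 and 24.6% in shRgs16. The part of these cells in the Stab1 and Fcgr2b values was not tested.

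The 7 genes that did not pass included Stab2, at 94.9, 96.7, 95.2 and 62.3 CPM in shRgs16 samples, against 69.6, 73.5, 66.8 and 73.7 CPM in shLacZ samples. In it 3 shRgs16 samples stood above all controls and replicate 4 below all of them, and the log2 fold change was 0.30 (SE 0.129, edgeR adjusted p = 0.0844). Kdr, at 83.1, 85.4, 82.7 and 50.8 CPM in shRgs16 samples against 68.4 to 72.0 CPM in shLacZ samples, showed the same split (log2 fold change 0.11, SE 0.149, edgeR adjusted p = 0.578), as did Lyve1 and Oit3. Lyve1 was at 28.9, 31.4, 32.0 and 19.8 CPM in shRgs16 samples, against 19.8 to 26.2 CPM in shLacZ samples. Oit3 was at 39.8, 36.3, 41.1 and 29.1 CPM in shRgs16 samples, against 30.7 to 33.1 CPM in shLacZ samples. Their log2 fold changes were 0.27 (SE 0.147, edgeR adjusted p = 0.148) for Lyve1 and 0.20 (SE 0.0946, adjusted p = 0.0983) for Oit3.

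Ehd3 was the single gene of the 10 with a negative log2 fold change in shRgs16 under TMM, and with library size alone it stood at 0.08 (adjusted p = 0.590). It stood at 70.5, 56.4, 79.9 and 55.9 CPM in shRgs16 samples, against 78.5, 81.1, 79.5 and 65.1 CPM in shLacZ samples. Replicates 2 and 4 lay below every control and replicates 1 and 3 among them, and the log2 fold change was -0.21 (SE 0.119, edgeR adjusted p = 0.163). Clec4g and Fcgr2b, with ranges of 43.5 to 54.9 and 53.4 to 70.6 CPM in shRgs16 against 46.8 to 50.6 and 57.4 to 61.1 CPM in shLacZ, had log2 fold changes of 0.01 and 0.11 (edgeR adjusted p = 0.918 and 0.260).

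Replicate 4 of shRgs16 decided several of these calls. It was the lowest of its group for 9 of the 10 genes, all but Egfl7, whereas it was the lowest for 23.5% of all genes. Among the other lists of endothelial genes described below, it was lowest for 15 of 18 sinusoidal, 20 of 22 pan-endothelial, 7 of 10 portal side, 4 of 8 central vein side, 6 of 17 continuous capillary and large vessel and 1 of 4 lymphatic genes. Among lists of other cells it was lowest for 4 of 6 B cell, 3 of 10 stellate cell, 1 of 10 hepatocyte, 0 of 12 Kupffer cell and 0 of 8 proliferation genes. It was lowest for 9 of 14 growth factor, 3 of 9 hyaluronan and scavenger and 2 of 11 endocytic genes. Without it, 8 of the 10 genes were called higher in shRgs16 against shLacZ (highest edgeR adjusted p 0.0338, for Fcgr2b), where 22.4% of all genes were called higher. The genes added were Stab2 at 0.43, Lyve1 at 0.41, Oit3 at 0.29, Kdr at 0.26 and Fcgr2b at 0.18 (log2 fold change). Without shRgs16 replicate 3, Ehd3 was called lower, at -0.32 (adjusted p = 0.0223). In all samples under library size alone, 8 of the 10 were called higher, the exceptions being Ehd3 and Kdr, beside 50.2% of all genes, and 0 lower, beside 8.35%.

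Set directly against each other in a fit of all 12 samples, the knockdowns differed in 6 of the 10 genes, all lower in shG0s2 than in shRgs16, and 0 were higher. Of 16018 genes tested, 20.5% were called lower and 21.0% higher. Groups did not overlap for 4 of these 6 (Ehd3, Oit3, Pecam1 and Egfl7), against 19.4% of all genes lower and 20.4% higher without overlap. Oit3 had a log2 fold change of -0.62 (SE 0.0928, edgeR adjusted p = 8.01e-05), at 21.2 to 25.4 CPM in shG0s2 against 29.1 to 41.1 CPM in shRgs16. Ehd3 had one of -0.64 (SE 0.106, adjusted p = 0.00024), at 40.3 to 44.3 CPM in shG0s2 against 55.9 to 79.9 CPM in shRgs16, again without overlap. The others were Egfl7 at -0.46 (SE 0.0740, adjusted p = 0.000155), Pecam1 at -0.36 (SE 0.0665, adjusted p = 0.000455), Stab1 at -0.39 (SE 0.0909, adjusted p = 0.00292) and Kdr at -0.50 (SE 0.149, adjusted p = 0.0182). Kdr overlapped between groups through shRgs16 replicate 4, at 44.1 to 60.7 CPM in shG0s2 against 50.8 to 85.4 CPM in shRgs16, and without shRgs16 replicate 3 it was no longer called (-0.46, adjusted p = 0.0528). Fcgr2b stood at -0.02 (SE 0.0697, edgeR adjusted p = 0.873). Without shRgs16 replicate 4, Stab2 (-0.37, adjusted p = 0.00828), Lyve1 (-0.41, adjusted p = 0.00427) and Clec4g (-0.35, adjusted p = 0.0364) were also called lower, and Clec4g was so without shG0s2 replicate 1 (-0.46, adjusted p = 0.000223). With library size alone 3 of the 10 were called lower, Oit3 at -0.42, Ehd3 at -0.44 and Egfl7 at -0.26, against 9.79% of all genes, and 0 higher, against 37.8%.

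Ratios within a sample do not depend on how samples are scaled to each other. Relative to Pecam1, Ehd3, Oit3 and Kdr were lower in every knockdown sample than in any control, in both knockdowns. In shRgs16 against shLacZ under TMM, Pecam1 itself was called higher (log2 0.48, edgeR adjusted p = 0.000215). There Ehd3 stood at -0.21, Oit3 at 0.20 and Kdr at 0.11 on the log2 scale, and none of them was called lower. The log2 ratio of Ehd3 to Pecam1 in TPM was 0.04, 0.06, 0.18 and 0.07 in shG0s2 samples, 0.40, 0.11, 0.63 and 0.32 in shRgs16 samples, and 1.04, 1.25, 1.08 and 0.88 in shLacZ samples. Put as averages, Ehd3 was about level with Pecam1 in shG0s2 livers (0.09 ± 0.062), in between in shRgs16 livers (0.36 ± 0.213) and above it in shLacZ livers (1.06 ± 0.150, SD, n = 4 each). The ratio was thus 0.509 of its shLacZ value in shG0s2 and 0.617 of it in shRgs16. In the comparison of shG0s2 with shLacZ, 3 of the 9 genes other than Pecam1 were lower without overlap, against 30.0% of all genes divided by Pecam1 in the same way, and none was higher, against 19.7%. In that of shRgs16 with shLacZ, 5 of the 9 were lower without overlap, against 45.8% of all genes, and none was higher, against 5.13%.

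Oit3 relative to Pecam1 averaged -0.26 ± 0.100 in shG0s2, -0.01 ± 0.123 in shRgs16 and 0.28 ± 0.0443 in shLacZ (log2, SD, n = 4 each). The order was the same for Kdr, at -0.32 ± 0.195 in shG0s2, -0.19 ± 0.246 in shRgs16 and 0.21 ± 0.0799 in shLacZ. The lectin and the Fc receptor separated from the controls without overlap in shRgs16 alone: Clec4g averaged 1.83 ± 0.262 in shG0s2, 1.79 ± 0.0824 in shRgs16 and 2.26 ± 0.110 in shLacZ, and Fcgr2b averaged 1.81 ± 0.0611 in shG0s2, 1.48 ± 0.0929 in shRgs16 and 1.86 ± 0.0793 in shLacZ. For Clec4g the overlap in shG0s2 came from replicate 1, at 2.22. Replicates 2 to 4 of shG0s2, at 1.72, 1.67 and 1.71, lay below all shLacZ samples (2.13 to 2.40). Between the knockdowns, Fcgr2b relative to Pecam1 was higher in shG0s2 than in shRgs16 without overlap, by 0.33, and Oit3 was lower, by 0.26, where 40.4% of all genes were higher and 4.21% lower. Stab1, Stab2, Lyve1 and Egfl7 relative to Pecam1 overlapped between groups in each comparison, with mean differences from shLacZ of -0.16 to 0.12 in shG0s2 and -0.37 to 0.11 in shRgs16.

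**Figure D3:**
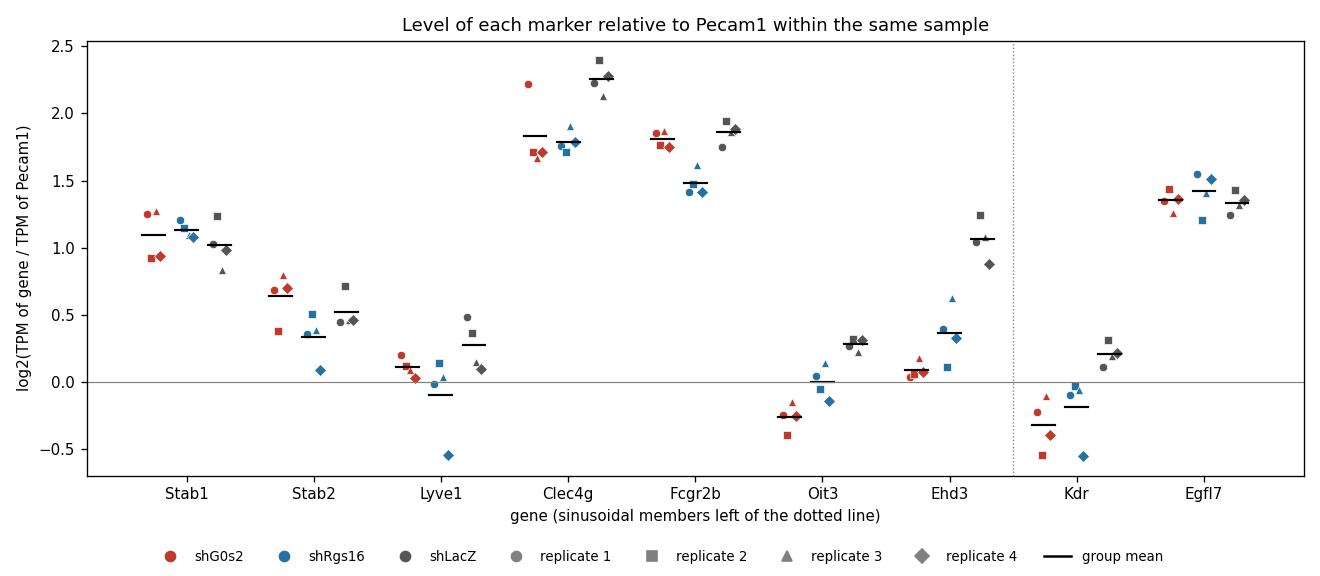
Log2 of each gene's TPM over that of Pecam1 in the same sample (y axis) for 9 genes (x axis), with shG0s2, shRgs16 and shLacZ from left to right within a gene, a symbol per replicate and a line for the group mean. Ehd3 shows the widest step, 0.09 in shG0s2 and 0.36 in shRgs16 against 1.06 in shLacZ, while Stab1 and Egfl7 overlap throughout.

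Averaged over each side on the log2 TPM scale, the 7 sinusoidal genes exceeded the 3 pan-endothelial genes by 0.41 ± 0.0556 in shG0s2, 0.30 ± 0.0623 in shRgs16 and 0.52 ± 0.0744 in shLacZ (SD, n = 4 each). By sample these differences were 0.48, 0.36, 0.43 and 0.39 in shG0s2 and 0.25, 0.33, 0.38 and 0.25 in shRgs16, against 0.58, 0.59, 0.46 and 0.46 in shLacZ. The shRgs16 samples all lay below the controls, by 0.22 on average, and a share over all genes was not computed for this average. In shRgs16 under TMM, Pecam1 and Egfl7 were themselves called higher (log2 0.48 and 0.54). Of the 7 sinusoidal genes, 1 was called higher and 0 lower there, with a median log2 fold change of 0.20. The shG0s2 samples overlapped the controls at a mean difference of -0.11, and this small value depended on Kdr: against Pecam1 and Egfl7 without Kdr it was -0.29 in shG0s2 and -0.37 in shRgs16. The average does not describe each of the 7, since relative to Pecam1 the groups separated for Ehd3 and Oit3 and overlapped for the stabilins and Lyve1.

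Within groups the genes tended to deviate together. Over the 45 pairs, the correlation of their deviations from the group means across 12 samples had a median of 0.536 and ran from -0.09 to 0.962. Without shRgs16 replicate 4 the median was 0.366. The points share libraries and scaling, so these values are descriptive, and the same median over pairs of all genes was not computed. Pairs with one gene from each side had a median of 0.536, and pairs of sinusoidal genes one of 0.551. Over all 12 samples, groups included, genes among the closest to the mean profile of the 7 sinusoidal genes, of 10216 searched, were Pigt (Pearson r 0.939), Arhgap23 (0.908), Mmrn2 (0.908), Ptprb (0.896) and Gpihbp1 (0.895). Of these, Mmrn2, Ptprb and Gpihbp1 are known as endothelial genes. The single closest gene was Slc25a23 for Ehd3 (0.982), Vars2 for Oit3 (0.956), Adgrf5 for Kdr (0.933), Slc9a9 for both Stab1 (0.965) and Pecam1 (0.966), Clec14a for Fcgr2b (0.883), Hbp1 for Clec4g (0.960), Dcaf7 for Egfl7 (0.958), Lyve1 was closest to Hus1 (0.870) and Stab2 to Arap3 (0.868). Differences between the 3 group means enter these r values.

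Other genes of sinusoidal endothelium, listed in the same way for 18 genes, moved in both directions. In shG0s2 against shLacZ 9 were called higher and 3 lower, with a median log2 fold change of 0.23. In shRgs16 against shLacZ 7 were called higher and 1 lower, with a median of 0.21, where the median of all genes was 0.01 in each comparison. For all genes the shares were 31.3% higher and 29.2% lower in shG0s2, and 24.6% higher and 24.5% lower in shRgs16, and every list below is to be read beside these. The fatty acid transporter Cd36 was at 408.8 ± 19.0 CPM in shG0s2, 141.1 ± 23.2 CPM in shRgs16 and 151.4 ± 18.1 CPM in shLacZ, and it rose in shG0s2 at a log2 fold change of 1.44 (adjusted p = 9.17e-08); hepatocytes can transcribe it too. Clec1b, a C-type lectin, rose by 0.62 in shG0s2 and 0.64 in shRgs16, and the mannose receptor Mrc1, which macrophages share, by 0.40 in shG0s2 and 0.49 in shRgs16 (all on the log2 scale). The Kupffer cell and macrophage list had medians of 0.749 in shG0s2 and 0.595 in shRgs16. Which liver cells the Clec1b and Mrc1 values come from was not tested. The lipid phosphatase gene Plpp3 fell by 0.32 in shG0s2 and by 0.48 in shRgs16. Bmp6, the endothelial ligand that drives hepcidin in hepatocytes, fell in shG0s2 (-0.43, adjusted p = 0.0143) and rose in shRgs16 (0.39, adjusted p = 0.0313), a difference between the knockdowns of -0.83 (edgeR adjusted p = 0.000151). Bmp6 and the protease gene Ctsl (-0.28, adjusted p = 0.0122) were, with Plpp3, the 3 called lower in shG0s2. None of these falls in shG0s2 held with library size alone, where Plpp3 (0.17, adjusted p = 0.0292) and Ctsl (0.21, adjusted p = 0.00877) were called higher and Bmp6 was not called (0.06, adjusted p = 0.720). Gata4, the transcription factor that maintains sinusoidal identity, had log2 fold changes of 0.11 in shG0s2 (adjusted p = 0.417) and 0.24 in shRgs16 (adjusted p = 0.0812). Flt4, a receptor for vascular endothelial growth factor C, stood at 0.03 in shG0s2 (adjusted p = 0.732) and 0.19 in shRgs16 (adjusted p = 0.409). Under library size alone, 17 of the 18 were called higher and 0 lower in shG0s2, and 13 higher and 1 lower in shRgs16, where 64.6% of all genes were called higher and 7.99% lower in shG0s2, and 50.2% higher and 8.35% lower in shRgs16.

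Most of the 22 other pan-endothelial genes were not called in shG0s2, and most were called higher in shRgs16. In shG0s2, 5 were called higher (31.3% of all genes) and 0 lower (29.2%), with a median log2 fold change of 0.13. In shRgs16, 15 were called higher (24.6% of all genes) and 1 lower (24.5%), with a median of 0.44. Cdh5, the adhesion molecule of endothelial junctions, averaged 43.9 ± 4.23 CPM in shG0s2, 51.3 ± 8.35 CPM in shRgs16 and 36.9 ± 2.52 CPM in shLacZ (log2 fold change 0.26 in shG0s2, adjusted p = 0.0134, and 0.47 in shRgs16, adjusted p = 0.00441). Ecscr, an endothelial surface protein, rose by 1.02 in shG0s2 and 1.16 in shRgs16, and the transcription factor Ets1 by 0.73 in shG0s2 and 0.65 in shRgs16. S1pr1, the sphingosine-1-phosphate receptor, was the single gene called lower in shRgs16 (-0.43, adjusted p = 0.00036), and with library size alone it was not called there (-0.13, adjusted p = 0.173). Between the knockdowns 13 of the 22 were lower and 1 (S1pr1) higher in shG0s2 than in shRgs16, where 20.5% of all genes were lower and 21.0% higher. Without shRgs16 replicate 4, 20 of these 22 and 11 of the 18 sinusoidal genes were called higher in shRgs16 against shLacZ (22.4% of all genes), and 16 of the 22 and 5 of the 18 were lower in shG0s2 than in shRgs16 (18.6% of all genes). Scaling to library size alone called 19 of the 22 higher in shG0s2 (64.6% of all genes) and 21 in shRgs16 (50.2%), and between the knockdowns gave 4 lower (9.79%) and 1 higher (37.8%).

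Markers of continuous capillaries and larger vessels included genes called higher in both knockdowns. Of the 16 tested from 19 listed, 10 were called higher and 1 lower in shG0s2, with a median log2 fold change of 0.78, and 9 higher and 1 lower in shRgs16, with a median of 0.48, where 31.3% of all genes were higher in shG0s2 and 24.6% in shRgs16. Without shRgs16 replicate 4, 8 of the 16 were higher in shRgs16. Plvap, the diaphragm protein of fenestrae and caveolae, averaged 88.4 ± 6.51 CPM in shG0s2, 52.6 ± 3.36 CPM in shRgs16 and 42.6 ± 4.58 CPM in shLacZ (log2 fold change 1.06 in shG0s2, adjusted p = 5.76e-07, and 0.30 in shRgs16, adjusted p = 0.00788). Cd34, a sialomucin of continuous capillaries, averaged 6.56 ± 0.727 CPM in shG0s2, 6.27 ± 1.21 CPM in shRgs16 and 3.06 ± 0.217 CPM in shLacZ (log2 fold change 1.11 in shG0s2, adjusted p = 1.65e-05, and 1.03 in shRgs16, adjusted p = 0.000253). Vcam1, a leukocyte adhesion molecule that other liver cells also make, was at 163.4 ± 10.9 CPM in shG0s2, 146.3 ± 14.1 CPM in shRgs16 and 44.6 ± 6.59 CPM in shLacZ. Cav1, the caveolar coat protein, went the other way at 3.89 ± 0.377 CPM in shG0s2, 3.39 ± 1.01 CPM in shRgs16 and 15.8 ± 1.78 CPM in shLacZ (log2 fold change -2.02 in shG0s2, adjusted p = 7.54e-08, and -2.22 in shRgs16, adjusted p = 3.76e-06). Vwf, von Willebrand factor of large vessel endothelium, had log2 fold changes of 0.16 in shG0s2 (adjusted p = 0.241) and 0.49 in shRgs16 (adjusted p = 0.0106). Plvap, Cd34 and Vcam1 were higher and Cav1 lower in both knockdowns with library size alone as well.

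Endothelium at either end of the sinusoid was listed separately. Some of these genes also stand in other lists: Sox17 in the pan-endothelial, Gja5 and Fabp4 in the continuous capillary, and Msr1 in the hyaluronan and scavenger list. Of 10 portal side genes, 7 were called higher and 0 lower in each knockdown (31.3% of all genes higher in shG0s2 and 24.6% in shRgs16), among them Jag1, a Notch ligand, at a log2 fold change of 1.37 in shG0s2 and 0.77 in shRgs16, and the transcription factor Sox17 at 0.62 in shG0s2 and 0.98 in shRgs16. Of 8 central vein side genes, 4 were higher and 1 lower in shG0s2, and 6 higher and 0 lower in shRgs16. With library size alone, all 10 portal side genes were higher in both knockdowns, and 7 of the 8 central vein side genes were higher in shG0s2 and all 8 in shRgs16, with 0 lower in either list, where 64.6% of all genes were higher in shG0s2 and 50.2% in shRgs16. The gene called lower was Wnt2, the Wnt ligand that endothelial cells around the central vein supply to hepatocytes, at 2.203 ± 0.195 CPM in shG0s2, 5.11 ± 0.834 CPM in shRgs16 and 3.89 ± 0.626 CPM in shLacZ. Its log2 fold changes were -0.81 in shG0s2 (edgeR adjusted p = 0.000986) and 0.39 in shRgs16 (adjusted p = 0.0679), and the knockdowns differed by -1.21 (adjusted p = 2.64e-05). Wnt2 was not called with library size alone in shG0s2 against shLacZ, at -0.33 (adjusted p = 0.125). Rspo3, which strengthens Wnt signals, rose in shG0s2 (0.74, adjusted p = 0.0013) and stood at 0.16 in shRgs16 (adjusted p = 0.428). The fatty acid binding protein gene Fabp4 rose by 1.64 in shG0s2 and 0.56 in shRgs16, and thrombomodulin, Thbd, by 0.83 in shG0s2 and 0.71 in shRgs16.

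**Figure D4:**
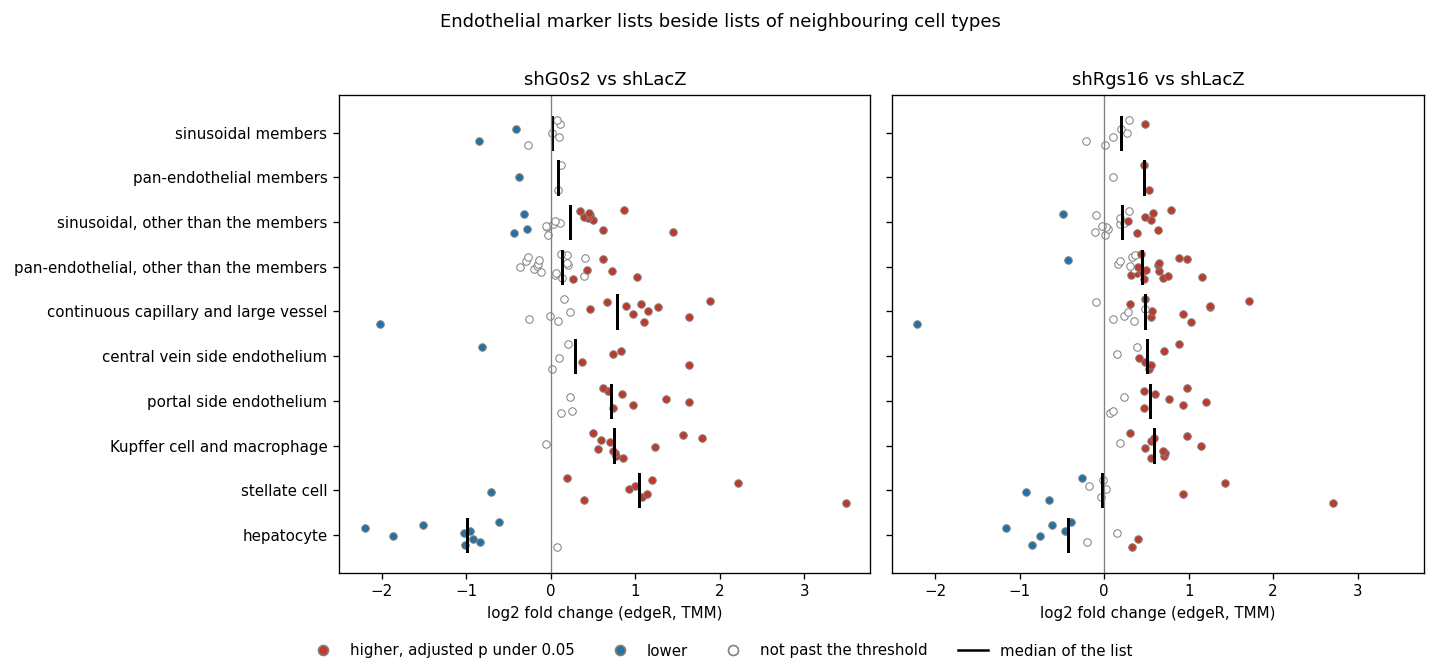
Log2 fold change from edgeR with TMM scaling (x axis) of every tested gene in 10 groups of marker genes (rows), for shG0s2 against shLacZ (left) and shRgs16 against shLacZ (right); filled red points are called higher, filled blue points lower, and the black line is the median of the row. The medians of continuous capillary and large vessel genes lie at 0.78 in shG0s2 and 0.48 in shRgs16, and those of the other sinusoidal genes at 0.23 in shG0s2 and 0.21 in shRgs16.

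The growth factors that act on these cells, with their receptors and regulators, held calls in both directions. Of 14 tested from 16 listed, 6 were called higher and 4 lower in shG0s2, and 4 higher and 1 lower in shRgs16, and with library size alone 10 were higher and 1 lower in each. Of all genes, 31.3% were higher and 29.2% lower in shG0s2, and 24.6% higher and 24.5% lower in shRgs16, and library size alone raised the share called higher to 64.6% in shG0s2 and 50.2% in shRgs16. Vegfa, the ligand of Kdr, averaged 92.4 ± 7.15 CPM in shG0s2, 155.4 ± 14.2 CPM in shRgs16 and 172.1 ± 6.38 CPM in shLacZ. It fell in shG0s2 at a log2 fold change of -0.89 (edgeR adjusted p = 4.21e-07), and at -0.40 (adjusted p = 5.94e-05) with library size alone, and stood at -0.15 in shRgs16 (adjusted p = 0.0839). Angpt2, an endothelial antagonist of the Tie2 receptor, averaged 2.04 ± 0.209 CPM in shG0s2, 4.84 ± 0.517 CPM in shRgs16 and 1.37 ± 0.0281 CPM in shLacZ and rose by 0.57 in shG0s2 (adjusted p = 0.0155) and by 1.81 in shRgs16 (adjusted p = 3.88e-06) on the log2 scale. Nrp1, a co-receptor for Vegfa, fell at -0.78 in shG0s2 (adjusted p = 0.00408) and -0.93 in shRgs16 (adjusted p = 0.000138), though with library size alone it passed in shRgs16 (-0.63) and not in shG0s2 (-0.29, adjusted p = 0.0702). The oxygen-sensing factor Hif1a rose by 0.40 in shG0s2 and 0.22 in shRgs16.

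Among 11 genes of the EHD family and endocytic machinery, 4 were called higher and 5 lower in shG0s2, and 3 higher and 6 lower in shRgs16. Of all genes, 31.3% were higher and 29.2% lower in shG0s2, and 24.6% higher and 24.5% lower in shRgs16. Ehd2, the caveolar relative of Ehd3, rose in both knockdowns, at 25.9 ± 2.604 CPM in shG0s2, 10.4 ± 2.92 CPM in shRgs16 and 4.07 ± 0.371 CPM in shLacZ (log2 fold change 2.68 in shG0s2, adjusted p = 4.97e-09, and 1.35 in shRgs16, adjusted p = 0.000135). Rab7, a late endosome GTPase, fell by 0.21 in shG0s2 and by 0.68 in shRgs16 under TMM, while library size alone called it higher in shG0s2 (0.28) and lower in shRgs16 (-0.39). Under library size alone, 10 of the 11 were called higher in shG0s2, Cav1 being the exception, and 6 higher and 3 lower in shRgs16, beside 64.6% of all genes higher in shG0s2 and 50.2% in shRgs16. Of 9 tested genes that make, bind or degrade hyaluronan or act as scavenger receptors, 4 were higher and 2 lower in shG0s2, and 3 higher and 3 lower in shRgs16, and with library size alone 5 were higher and 0 lower in shG0s2, and 5 higher and 1 lower in shRgs16. Hmmr, a hyaluronan-binding protein of the mitotic spindle, rose by 3.29 in shG0s2 and 2.43 in shRgs16, and the scavenger receptor Msr1 of macrophages and endothelium by 0.84 in shG0s2 and 0.60 in shRgs16. Colec12, a scavenger receptor of vascular endothelium, stood at -0.19 in shG0s2 (adjusted p = 0.193) and fell in shRgs16 (-1.72, adjusted p = 8.75e-06), and the knockdowns differed by 1.51 (adjusted p = 1.27e-06).

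Markers of neighbouring cells were counted beside the same shares of all genes, 31.3% higher and 29.2% lower in shG0s2, and 24.6% higher and 24.5% lower in shRgs16. Kupffer cell and macrophage genes were called higher for 11 of 12 in shG0s2 and 10 of 11 in shRgs16. Among them C1qa rose by 0.77 in shG0s2 and 0.71 in shRgs16, and Cd68 by 1.24 in shG0s2 and 1.14 in shRgs16. Stellate cell genes were higher for 9 of 10 and lower for 1 in shG0s2, and higher for 3 and lower for 3 in shRgs16. Under TMM, Pdgfrb rose in both knockdowns (2.21 in shG0s2 and 1.43 in shRgs16). Colec11 rose in shG0s2 (0.40) and fell in shRgs16 (-0.65), and the matrix proteoglycan Dcn stood at 1.08 in shG0s2 and -0.04 in shRgs16. Hepatocyte genes were lower for 9 of 10 and higher for 0 in shG0s2, and lower for 6 and higher for 2 in shRgs16, with the cytochrome Cyp2e1 at -1.87 in shG0s2 and -0.75 in shRgs16. All 8 proliferation genes were higher in both knockdowns, with Top2a, the mitotic topoisomerase, at 2.12 in shG0s2 and 1.36 in shRgs16. B cell genes were higher for 1 of 6 in shG0s2, a smaller share than that of all genes, and for 2 of 6 in shRgs16, Cd22 in both. Lymphatic endothelial genes, of which 4 were tested, were higher for 2 and lower for 1 in shG0s2, and higher for 2 and lower for 0 in shRgs16. Those higher in shG0s2 were Mmrn1 (0.96) and Reln (1.20), and Reln was also counted in the stellate cell list. The gene lower in shG0s2 was Prox1 (-0.54), and with library size alone 0 of the 4 were lower there. Prox1 averaged 190.4 CPM in shLacZ, where Mmrn1 averaged 0.999 CPM, Ccl21a 1.903 CPM and Reln 48.25 CPM. Which liver cells the Prox1 value comes from was not tested. With library size alone (64.6% of all genes higher in shG0s2 and 50.2% in shRgs16), stellate cell genes in shRgs16 were higher for 5 and lower for 2, hepatocyte genes in shRgs16 higher for 3 and lower for 3, and hepatocyte genes in shG0s2 higher for 1 and lower for 8. The part of these other cells in the values of the 10 genes was not tested.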

How the data were processed

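Liver RNA from 12 samples (3 groups of 4) had been depleted of ribosomal RNA and sequenced, per the labels' protocols. The authors deposited a table per knockdown, each with its shLacZ controls. Both hold, per the file headers, estimated counts per gene and sample, which split reads among similar genes and were not whole for 5789 to 6625 values a sample, and TPM for each sample. Beside these stand the authors' own comparison columns: a fold ratio, the log2 of it, and p-values before and after adjustment. Per the submitters' processing notes, DESeq2, Bowtie2 2.2.9, SAMtools 1.9, fastp 0.19.5 and GATK 3.8 were used. Not given in the sources used here are the build, annotation, counting program and strand setting. The shLacZ values of both tables were identical (0 differences over 8 columns), so the 12 samples were joined, and all 55536 gene identifiers matched GENCODE for GRCm38.

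Counts were rounded, filtered with filterByExpr, scaled by TMM and tested over all genes, two-sided, with the quasi-likelihood test of edgeR 4.0.16 (robust) in R 4.3.3, Benjamini-Hochberg adjusted, at 0.05. Each knockdown was fitted with shLacZ in 8 samples, and shG0s2 against shRgs16 in all 12. Adjusted p-values with no other tool named are edgeR's. Alternatives were DESeq2 1.42.0, voom in limma 3.58.1, other scalings and filters, a replicate block, another sample set and each sample left out. The 10 genes and 14 marker lists were chosen with earlier results of these data known. Lists share some genes (Apln, Cav1, Fabp4, Flt1, Gja5, Msr1, Reln, Sox17, Tek and Tie1), so their counts are not independent. Named from each list were the 2 genes with the smallest p in each knockdown, some set genes (Gata4, Cdh5, Cd34, Plvap, Vwf, Wnt2, Rspo3, Vegfa, Mrc1 and Flt4) and, in lists where 5 or fewer went against the rest, those. Where 2 libraries of a group were compared, chi-square per degree of freedom was 12.12 to 47.26, so no pair agreed within counting noise. Promoters were matched by symbol to RefSeq (7 of 10 genes). One gene close to the sinusoidal profile is not reported here. Ehd2, Clec4f, Bmp6, Ctsl, Nt5dc2 and Agpat2 are named also for what they show beside the 10 genes, chosen after their values were seen.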

Additional observations from a re-analysis of the deposited data

Results flagged for a closer look

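Among 33 sets of 4 samples checked (each of the 10 genes and a ratio in 3 groups), 6 held a sample standing far from the other 3, where chance gives about 1 in 20 sets. In shRgs16, replicate 4 was low for Stab2, at 62.29 CPM against 94.93 to 96.68 CPM in the other replicates, and for Kdr, at 50.76 CPM against 82.65 to 85.37 CPM. In shG0s2, replicate 1 was high for Clec4g, at 53.43 CPM against 35.54 to 36.95 CPM in the others, and replicate 3 was low for Egfl7, at 22.33 CPM against 24.04 to 24.33 CPM. In shLacZ, replicate 4 was low for Ehd3, at 65.14 CPM against 78.45 to 81.09 CPM, and replicate 3 was high for Fcgr2b, at 61.14 CPM against 57.44 to 57.51 CPM. The Fcgr2b and Egfl7 gaps are small in size, and the calls of both genes kept their side of the threshold when that sample was left out.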

How the results depend on the processing

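The fall of Ehd3 in shG0s2 against shLacZ kept its direction and stayed past the threshold in all 17 alternatives, from -0.91 to -0.36 (adjusted p 1.4e-21 to 0.00199). In shRgs16 against shLacZ, Stab1 (0.40 to 0.79), Pecam1 (0.45 to 0.78) and Egfl7 (0.46 to 0.84) did so in 17 of 17. Library size alone moved the counts of the 10 genes. In shG0s2 against shLacZ it gave 6 higher and 1 lower, in shRgs16 against shLacZ 8 higher, and in shG0s2 against shRgs16 3 lower. It reversed Oit3 (0.0813) and Kdr (0.1023) in shG0s2 against shLacZ. Leaving out 1 replicate at a time gave 3 to 8 genes higher and 0 to 1 lower in shRgs16 against shLacZ. The difference between sinusoidal and pan-endothelial averages, -0.11 for shG0s2 minus shLacZ, became -0.29 without Kdr and -0.23 without Fcgr2b and Stab1. That of shRgs16 minus shLacZ, -0.22, became -0.37 and -0.30. The cause was not tested.

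Over all tested genes, same-numbered samples showed no clear pairing in their deviations (correlations -0.07 to 0.136, against -0.131 to 0.113 for other pairs). This whole-profile check does not cover a factor shared in only part of the genes. With a replicate block Clec4g passed the threshold in shG0s2 against shLacZ (-0.29, adjusted p = 0.0258) and against shRgs16 (-0.30, adjusted p = 0.0304), and Lyve1 in shRgs16 against shLacZ (0.26, adjusted p = 0.0441); the block changed no other call among the 10 genes. DESeq2 called Stab2 in shRgs16 against shLacZ (0.30, adjusted p = 0.0491), and voom called Clec4g in shG0s2 against shRgs16 (-0.30, adjusted p = 0.0424). Kdr in shG0s2 against shRgs16 lost its call without a filter (adjusted p = 0.052) and with only the 8 samples compared (adjusted p = 0.0511). Apart from the main counts and ratios, 572 values were counted as unchanged: calls that held, and list counts that stayed the same or shifted little. Such a small shift was 15 to 20 other pan-endothelial genes called higher in shRgs16 against shLacZ without shRgs16 replicate 4. A further 43 list counts were counted as moved (all under library size alone or without shRgs16 replicate 4), 27 calls were gained, 6 lost and 2 reversed. Lists without shRgs16 replicate 4 were an alternative chosen after seeing the data. The bulk counts cannot separate cell number from RNA per cell.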
